A study of Mus musculus with 4 samples.

Results

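YAP1 and TAZ are transcriptional co-activators of the Hippo pathway, and the genes described here are *Yap1* and *Wwtr1*, which encode them, the TEAD factor genes *Tead1*, *Tead2* and *Tead3*, and 5 genes that are widely read as YAP/TAZ targets, *Ccn1* (formerly *Cyr61*), *Ccn2* (formerly *Ctgf*), *Ankrd1*, *Amotl2* and *Lats2*. These 10 genes were chosen by name from the 39179 genes in the count data. They were compared between tumor repopulating cells (TRCs) and parental B16F1 cells, a mouse melanoma cell line. The 2 TRC libraries came from cells that had grown into spheroids in soft 3D fibrin gel of 90 Pa stiffness and were isolated on day 5, and the 2 control libraries came from the parental line, which is traditionally grown on rigid 2D dishes. Both groups are the same cell line, and the sources used here name no engineered allele or added drug. Gel, softness, spheroid growth and the survival of a subset of the seeded cells all separate the TRCs from the controls and cannot be told apart here. The libraries of each group are numbered 1 and 3, and nothing in the labels says that they came from separate cultures, so the p-values measure the spread between these libraries, which may be technical.

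In the Hippo pathway, the kinases MST1 and MST2 activate LATS1 and LATS2, which phosphorylate YAP1 and TAZ and keep them out of the nucleus. On stiff substrates and in spread cells, YAP1 and TAZ are known to enter the nucleus, where they bind TEAD factors on DNA and raise the transcription of genes such as *Ccn1* and *Ccn2*. Because the co-activators are controlled mainly through their location and stability, their mRNA level is not a measure of their activity, and no protein was measured in these data.

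The DNA word through which TEAD factors bind, GGAATG or its reverse complement CATTCC, was looked for in RefSeq promoter windows of GRCm38.p6, in the 250 bases before each annotated start. Windows were found for 8 of the 10 genes, and 6 of the 8 held at least 1 match on either strand. Of all 27025 symbols with such a window, 14.4% held a match, and since several of the genes were picked as known TEAD targets, the count is a description only. The *Ccn1* window is shown whole because *Ccn1* was one of the genes that differed between the groups. It lies on the minus strand at chr3:145649986-145650235, is written 5′ to 3′, and carries its match in capitals, beginning 103 bases before the start.

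*Ccn1*: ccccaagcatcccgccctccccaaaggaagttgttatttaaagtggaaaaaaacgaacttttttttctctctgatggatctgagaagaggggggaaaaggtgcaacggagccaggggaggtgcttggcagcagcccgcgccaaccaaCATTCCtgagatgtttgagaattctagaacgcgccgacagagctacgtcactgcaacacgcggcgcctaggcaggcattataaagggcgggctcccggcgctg

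The matches of the other genes are shown in 30 bases each, again with the word in capitals, to set the target genes *Amotl2* and *Ankrd1* beside the co-activator genes and *Tead3*. The coordinates are chr9:102717727-102717756 on the plus strand for *Amotl2*, and on the minus strand chr19:36120037-36120066 and chr19:36119950-36119979 for the 2 matches of *Ankrd1*, chr9:8004720-8004749 for *Yap1*, chr3:57576029-57576058 for *Wwtr1* and chr17:28350706-28350735 for *Tead3*.
*Amotl2*: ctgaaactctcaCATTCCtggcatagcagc
*Ankrd1*, first match: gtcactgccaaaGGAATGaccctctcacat
*Ankrd1*, other match: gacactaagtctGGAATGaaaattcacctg
*Yap1*: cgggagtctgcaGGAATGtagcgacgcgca
*Wwtr1*: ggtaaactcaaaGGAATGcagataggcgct
*Tead3*: tccggccgggctCATTCCgtaCATTCCggc
The *Tead3* stretch holds the word at 2 places, and a further *Tead3* window holds another match. Some windows lie partly or wholly in exons of the same gene in GENCODE. This held for all 250 bases of the *Ankrd1* window, 217 of the window of the *Tead3* stretch and 136 of the *Amotl2* window. It held for 0 bases of the *Ccn1* and *Yap1* windows. Not every match shown thus lies upstream of the annotated transcripts. The windows of *Tead2* and *Lats2* held none, which says only that these letters were not in these windows. The AP-1 word TGANTCA and the CArG box that SRF binds, both searched on both strands, were found in 0 of the 12 windows of the 8 genes, against 6.75% and 1.47% of all 32851 windows.

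The libraries held between 35948295 and 43511554 reads counted on genes. The melanocyte identity of both groups was checked with *Mitf*, *Sox10*, *Tyr*, *Tyrp1*, *Dct*, *Pmel* and *Mlana*, and all 7 were above 1 CPM (counts scaled to library size with edgeR's TMM factors) in every library. Their summed level was 15710 to 18910 CPM in the controls and 23970 to 26670 CPM in the TRCs. Only *Dct* was upregulated, from a mean of 5014 CPM in controls to 10590 CPM in TRCs, and the other 6 were not called. For *Mitf*, *Sox10*, *Tyr*, *Tyrp1* and *Mlana* the groups overlapped. The part of the difference in the sum in the results below was not tested. Markers of other cell types were low. The 5 fibroblast markers summed to 2.04 to 4.68 CPM, and the leukocyte, endothelial and epithelial markers to at most 0.170 CPM in any library, with *Ptprc*, *Cd3e*, *Itgam*, *Cdh5*, *Kdr*, *Krt5* and *Krt14* at 0 counts throughout. In bulk RNA, fewer cells of a kind and less RNA per cell cannot be told apart.

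Of the 10 genes, 9 passed the filter on low counts, and 2 of these, *Ccn1* and *Amotl2*, were downregulated in TRCs at FDR under 0.05 in edgeR's exact test, while 0 were upregulated. Across all 11483 genes tested, 15.9% were differentially expressed, with 7.05% lower and 8.81% higher in TRCs. The remaining 7 tested genes did not pass the threshold, and 7 of the 9 had an unadjusted p under 0.05, against 28.0% of all genes tested. The genes and the lists below were chosen with earlier results of these data known, so such counts are a description only. *Ankrd1* had no counts in any library. In the medians over the genes tested, the log2 fold change was −0.54 for the 9 genes and 0.0034 for all genes. The median of the 9 does not stand for a shared direction, since 3 of them lay higher and 4 lower in both TRC libraries than in both controls. Among all genes tested, 30.2% lay higher and 30.4% lower in this way. Without control replicate 3 the median of the 9 was 0.11.

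**Figure D1:**
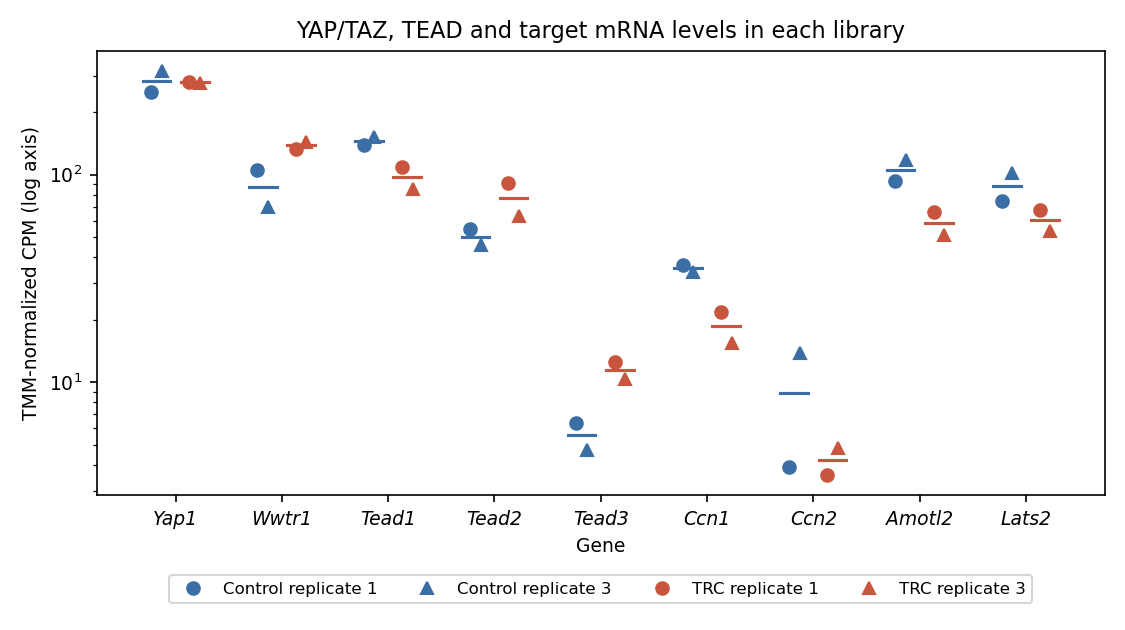
TMM-normalized CPM on a log axis for the 9 genes with counts, in control libraries (blue) and TRC libraries (red), with circles for replicate 1, triangles for replicate 3 and a bar at each group's mean. *Ccn1* and *Amotl2* lie lower in both TRC libraries than in both controls, *Yap1* lies at nearly the same mean in both groups, and the control libraries of *Ccn2* sit far apart.

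*Yap1* (ENSMUSG00000053110, minus strand of chromosome 9 from 7931999 to 8004596, GRCm38) was measured at 249.7 CPM and 316.0 CPM in control replicates 1 and 3 and at 281.1 CPM and 277.3 CPM in TRC replicates 1 and 3. The TRC libraries lay between the controls. The log2 fold change was −0.019 (SE 0.21 from DESeq2, FDR = 0.971 in edgeR's exact test). Its 95% interval, also from DESeq2, ran from −0.43 to 0.39, so changes of a size inside it were not excluded. An opposite-strand gene model, *Gm20416*, shares 116 exon bases with *Yap1*, and the strand setting of the counting is not given in the sources used here.

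*Wwtr1* (ENSMUSG00000027803, minus strand of chromosome 3 from 57455649 to 57575910) encodes TAZ, the paralog of YAP1. Its level was 105.0 CPM and 69.5 CPM in control replicates 1 and 3, and 132.6 CPM and 143.8 CPM in TRC replicates 1 and 3. Both TRC libraries lay above both controls, which was also the case for 30.2% of all genes tested. The log2 fold change was 0.66 (SE 0.25, FDR = 0.0539 in edgeR's exact test), just outside the threshold, with an interval from 0.17 to 1.16. In DESeq2's Wald test the FDR was 0.046, and without control replicate 1 the log2 fold change was 0.99 with FDR = 0.00535. The other 10 of the 12 alternatives did not call it, and without control replicate 3 the log2 fold change was 0.39 with FDR = 0.505.

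Compared within each library and per kb of the longest transcript, *Yap1* mRNA was 2.12 and 4.05 times as abundant as *Wwtr1* mRNA in control replicates 1 and 3 and 1.89 and 1.72 times in TRC replicates 1 and 3. Both TRC ratios were below both control ratios, but the control ratios differed from each other by more than the lower of them differed from the TRCs. With merged exon length in place of the longest transcript, the mean ratio was 1.79 in place of 3.08 in controls and 1.045 in place of 1.8 in TRCs. The 2 co-activator mRNAs summed to 72.1 ± 3.5 CPM per kb (SD, n = 2) in controls and 82.3 ± 1.2 CPM per kb (SD, n = 2) in TRCs. An exact permutation test of 2 against 2 libraries cannot give a two-sided p below 0.333, so such ratios carry no test of their own.

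TEAD1 to TEAD4 are DNA-binding proteins of 1 family that need YAP1, TAZ or a VGLL protein as partner. None of *Tead1*, *Tead2* and *Tead3* passed the threshold in edgeR's exact test, yet for each of them the groups did not overlap. *Tead1* (ENSMUSG00000055320, plus strand of chromosome 7 from 112679318 to 112906807) was measured at 138.7 CPM and 152.7 CPM in control replicates 1 and 3 and at 108.8 CPM and 85.0 CPM in TRC replicates 1 and 3. Both TRC libraries lay below both controls, a position that 30.4% of all genes tested shared. Its log2 fold change was −0.59 (SE 0.22, FDR = 0.0686 in edgeR's exact test), with an interval from −1.02 to −0.16, and the FDR was 0.0449 in DESeq2's Wald test, the only 1 of the 12 alternatives that called it. Without TRC replicate 3 the log2 fold change was −0.42 with FDR = 0.492.

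*Tead2* (ENSMUSG00000030796, plus strand of chromosome 7 from 45215753 to 45233644) was measured at 54.6 CPM and 45.9 CPM in control replicates 1 and 3 and at 91.0 CPM and 63.5 CPM in TRC replicates 1 and 3. The groups did not overlap, with TRC replicate 3 nearer to the controls. The log2 fold change was 0.62 (SE 0.26, FDR = 0.0685 in edgeR's exact test), and without TRC replicate 1 it was 0.33 with FDR = 0.617. *Tead3* (ENSMUSG00000002249, minus strand of chromosome 17 from 28331671 to 28350817) was lowest of these 3 and was measured at 6.36 CPM and 4.70 CPM in control replicates 1 and 3 and at 12.5 CPM and 10.4 CPM in TRC replicates 1 and 3. The TRC libraries again lay above the controls. Its log2 fold change of 1.05 (SE 0.34, FDR = 0.0504 in edgeR's exact test) fell just short of the threshold, and the FDR was 0.0476 with DESeq2's size factors, 0.0167 in DESeq2's Wald test and 0.0489 without control replicate 1. The other 9 of the 12 alternatives did not call it, with FDR up to 0.355 without TRC replicate 1.

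*Tead4* (ENSMUSG00000030353, minus strand of chromosome 6), the remaining TEAD gene and one of the Hippo pathway list described below, was measured at 24.7 CPM and 21.4 CPM in control replicates 1 and 3 and at 13.9 CPM and 10.1 CPM in TRC replicates 1 and 3. The groups did not overlap. *Tead4* fell by 0.94 on the log2 scale (SE 0.29, FDR = 0.0297 in edgeR's exact test). This call was lost in each fit with 1 library left out, where the log2 fold change ran from −1.19 to −0.73. Without the filter on low counts the FDR was 0.0502 in edgeR's exact test. In edgeR's quasi-likelihood test it was 0.0599, and 0.065 with a block for the replicate number.

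**Figure D2:**
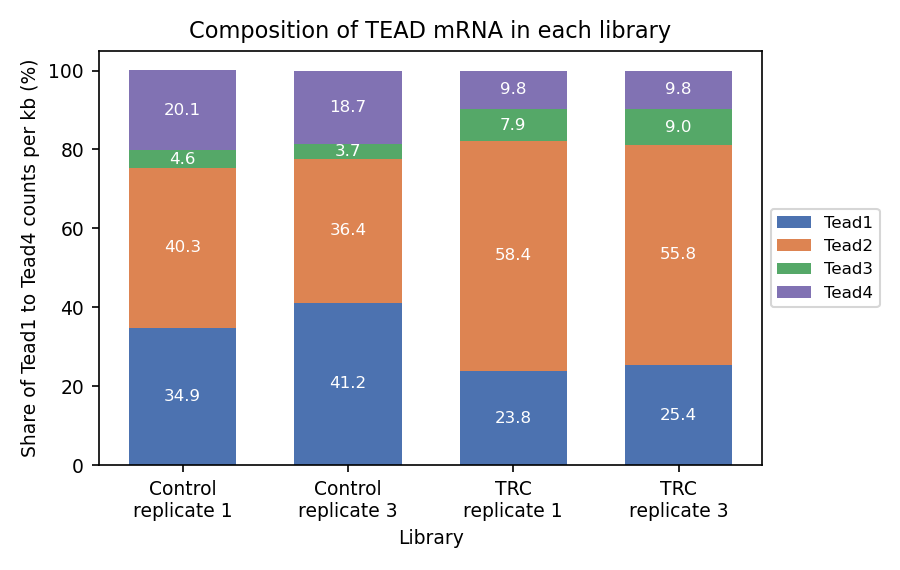
Share of each TEAD gene in the summed counts per kb of *Tead1* to *Tead4*, in percent, for each library. *Tead2* takes 36.4% to 40.3% in the controls and 55.8% to 58.4% in the TRCs, while *Tead1* and *Tead4* take smaller shares in both TRC libraries than in both controls.

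Expressed as shares of the counts per kb of all 4 TEAD genes, which do not depend on the scaling between libraries, the composition of TEAD mRNA was close between libraries of a group and apart between groups. *Tead1* made up 38.1% ± 4.5 (SD, n = 2) in controls and 24.6% ± 1.1 (SD, n = 2) in TRCs. *Tead2* made up 38.4% ± 2.8 (SD, n = 2) in controls, level with *Tead1*, and 57.1% ± 1.9 (SD, n = 2) in TRCs. The share of *Tead3* was 4.15% ± 0.68 (SD, n = 2) in controls and 8.46% ± 0.75 (SD, n = 2) in TRCs. The share of *Tead4* was 19.4% ± 1.0 (SD, n = 2) in controls and 9.83% ± 0.0028 (SD, n = 2) in TRCs. For each of the 4 shares the groups did not overlap, but shares of 1 total are not separate observations. Of all genes tested, 30.2% lay higher and 30.4% lower in both TRC libraries than in both controls. The summed TEAD level was 39.9 and 37.2 CPM per kb in control replicates 1 and 3 and 45.9 and 33.5 CPM per kb in TRC replicates 1 and 3, so the groups overlapped in the total.

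*Ccn1* and *Ccn2* encode secreted matricellular proteins of the CCN family and are the targets most often used to read YAP/TAZ activity. *Ccn1* (ENSMUSG00000028195, minus strand of chromosome 3 from 145646976 to 145649981), whose promoter window is printed above, was measured at 36.8 CPM and 34.1 CPM in control replicates 1 and 3 and at 21.9 CPM and 15.5 CPM in TRC replicates 1 and 3. The controls differed little from each other, and both TRC libraries lay well below them. *Ccn1* was 1.90-fold lower in TRCs (log2 fold change −0.92, SE 0.27, FDR = 0.011 in edgeR's exact test). The call was lost without TRC replicate 3, at a log2 fold change of −0.70, and without control replicate 1, at −0.87. In these fits a lone library is assumed to vary like the other group. The call was also lost in edgeR's quasi-likelihood test with a replicate block (FDR = 0.0572).

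*Ccn2* (ENSMUSG00000019997, plus strand of chromosome 10 from 24595442 to 24598683) was measured at 3.89 CPM and 13.8 CPM in control replicates 1 and 3 and at 3.56 CPM and 4.83 CPM in TRC replicates 1 and 3. Control replicate 3 stood 3.55-fold above control replicate 1, and control replicate 1 lay between the TRC libraries. The log2 fold change of −1.08 (SE 0.56, FDR = 0.191 in edgeR's exact test) was thus not larger than the spread between the controls, with an interval from −2.18 to 0.022. Without control replicate 3 the log2 fold change was 0.11, and without control replicate 1 it was −1.72 with FDR = 0.00235. The opposite-strand gene model *Gm15270* shares 665 exon bases with *Ccn2*. In counts per kb, *Ccn1* exceeded *Ccn2* 11.7 and 3.04 times in control replicates 1 and 3 and 7.57 and 3.96 times in TRC replicates 1 and 3, with overlap between the groups.

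*Ankrd1* (ENSMUSG00000024803, minus strand of chromosome 19 from 36111961 to 36120099) encodes an ankyrin repeat protein of the nucleus and the muscle sarcomere and is a common reporter of YAP/TAZ and of stretch in other cell types. It had 0 counts in all 4 libraries, which allows up to 3 counts, or 0.0675 to 0.0850 CPM per library, for counting error only. It gave no comparison in these cells.

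*Amotl2* and *Lats2* are targets that restrain YAP1 and TAZ in return, *Amotl2* as an angiomotin that holds them at junctions and *Lats2* as the kinase that phosphorylates them. *Amotl2* (ENSMUSG00000032531, plus strand of chromosome 9 from 102716672 to 102733418) was measured at 92.9 CPM and 117.3 CPM in control replicates 1 and 3 and at 66.0 CPM and 50.9 CPM in TRC replicates 1 and 3. Both TRC libraries lay below both controls. *Amotl2* was 1.798-fold lower in TRCs (log2 fold change −0.85, SE 0.24, FDR = 0.00648 in edgeR's exact test). The call was lost without TRC replicate 3 and without control replicate 3, each with a log2 fold change of −0.67. It was also lost in edgeR's quasi-likelihood test with a replicate block (FDR = 0.0697).

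*Lats2* (ENSMUSG00000021959, minus strand of chromosome 14 from 57689662 to 57758388) was measured at 74.9 CPM and 101.8 CPM in control replicates 1 and 3 and at 67.5 CPM and 53.7 CPM in TRC replicates 1 and 3. The TRC libraries lay below the controls, with a gap between control replicate 1 and TRC replicate 1 that was smaller than the spread within either group. The log2 fold change was −0.54 (SE 0.25, FDR = 0.116 in edgeR's exact test), with an interval from −1.04 to −0.050, and without control replicate 1 it was −0.75 with FDR = 0.0312, the only 1 of the 12 alternatives that called it. Without control replicate 3 it was −0.31 with FDR = 0.6. Its paralog *Lats1* was measured at 122.3 CPM and 134.9 CPM in control replicates 1 and 3 and at 110.7 CPM and 88.2 CPM in TRC replicates 1 and 3, with FDR = 0.295 in edgeR's exact test.

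Per kb of the longest transcript, which allows levels of different genes to be set side by side, *Yap1* was the most abundant of the 10 mRNAs in both groups, at 53.6 ± 8.9 CPM per kb (SD, n = 2) in controls and 52.9 ± 0.52 CPM per kb (SD, n = 2) in TRCs. In controls it was followed by *Amotl2*, *Wwtr1*, *Ccn1*, *Lats2*, *Tead2* and *Tead1*, between 23.8 and 14.6 CPM per kb, and neighbours in that order did not differ beyond their spread. *Ccn2* at 3.56 CPM per kb and *Tead3* at 1.61 CPM per kb came last among the detected genes. In TRCs *Wwtr1* came next after *Yap1*, at 29.4 ± 1.7 CPM per kb (SD, n = 2), and then *Tead2* at 22.7 ± 5.7 CPM per kb (SD, n = 2). With merged exon length in place of the longest transcript, *Yap1* and *Wwtr1* were nearly level in TRCs, at a mean ratio of 1.045. *Amotl2*, *Lats2*, *Tead1* and *Ccn1* followed between 13.2 and 9.26 CPM per kb without differing from their neighbours beyond the spread, and *Tead3* and *Ccn2* were lowest at 3.33 and 1.69 CPM per kb.

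A list of 29 further Hippo pathway genes held TEAD cofactors, the kinase module, upstream scaffolds and LIM proteins. Of the 25 that were tested, 3 were downregulated and 0 upregulated in edgeR's exact test, and 6 had an unadjusted p under 0.05, where 15.9% of all genes were called and 28.0% had such a p. The median log2 fold change was −0.12. It was −0.24 without control replicate 1, −0.17 without control replicate 3, −0.24 without TRC replicate 1 and −0.16 without TRC replicate 3. The 3 were *Tead4*, given above, *Vgll3*, which encodes a cofactor that competes with YAP1 and TAZ for TEAD factors, and *Wwc1*, which encodes the scaffold KIBRA upstream of LATS.

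*Vgll3* was measured at 201.0 CPM and 287.5 CPM in control replicates 1 and 3 and at 139.1 CPM and 105.1 CPM in TRC replicates 1 and 3. Both TRC libraries lay below both controls. *Vgll3* was 2.0-fold lower in TRCs (log2 fold change −1.0003, SE 0.26, FDR = 0.00225 in edgeR's exact test). The call was lost without control replicate 3, at a log2 fold change of −0.72, and without TRC replicate 3, at −0.81. It was also lost in edgeR's quasi-likelihood test with a replicate block (FDR = 0.0649).

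*Wwc1* was measured at 33.3 CPM and 53.6 CPM in control replicates 1 and 3 and at 25.0 CPM and 15 CPM in TRC replicates 1 and 3, again without overlap. *Wwc1* was 2.17-fold lower (log2 fold change −1.12, SE 0.34, FDR = 0.00692 in edgeR's exact test). The call was lost without control replicate 3, at a log2 fold change of −0.74, and without TRC replicate 3, at −0.79. It was also lost in edgeR's quasi-likelihood test (FDR = 0.0627) and in that test with a replicate block (FDR = 0.104).

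The pathway genes given next were those not called with the highest mean CPM, which is not scaled to length. *Map4k4*, a kinase that can act on LATS, had a log2 fold change of −0.42 (SE 0.19), and *Mob1a*, the LATS adaptor, had −0.33 (SE 0.19). *Ptpn14*, a phosphatase that binds YAP1, had −0.44 (SE 0.19), and *Amotl1*, an angiomotin, had 0.014 (SE 0.22). *Vgll1* and *Vgll2* had 0 counts in all libraries.

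**Figure D3:**
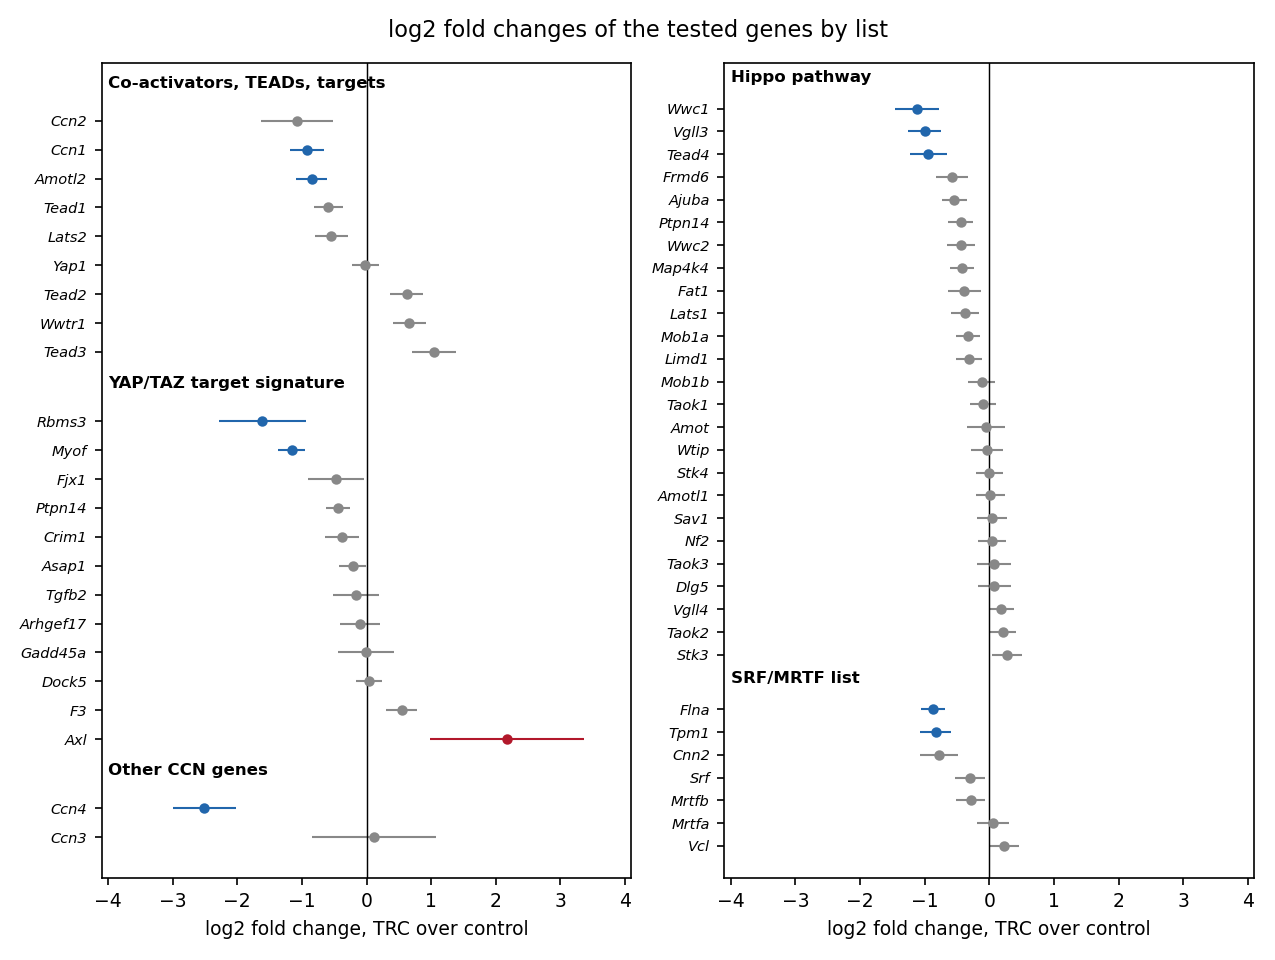
log2 fold changes of TRCs over controls for the tested genes of each list, from edgeR's exact test, with bars of 1 SE from DESeq2. Blue points were downregulated and red points upregulated at FDR under 0.05, and grey points did not pass. The blue points are *Ccn1* and *Amotl2* among the co-activators, TEADs and targets, *Tead4*, *Vgll3* and *Wwc1* in the Hippo pathway, *Myof* and *Rbms3* among further YAP/TAZ targets, *Ccn4* in the CCN family and *Flna* and *Tpm1* in the SRF/MRTF list, and the only red point is *Axl*.

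A list of 17 further genes from a YAP/TAZ target signature that is shared among human cancers included *Ptpn14* a second time. Of these, 12 were tested, 2 were downregulated and 1 was upregulated, beside the 15.9% of all genes that were called. The median log2 fold change was −0.19. It was −0.36 without control replicate 1, −0.17 without control replicate 3, −0.47 without TRC replicate 1 and −0.13 without TRC replicate 3. *Myof*, which encodes the membrane repair protein myoferlin, was measured at 172.7 CPM and 145.0 CPM in control replicates 1 and 3 and at 75.9 CPM and 66.2 CPM in TRC replicates 1 and 3. Neither TRC library came near the controls. *Myof* was 2.23-fold lower (log2 fold change −1.16, SE 0.21, FDR = 2.73e-05 in edgeR's exact test), and it passed the threshold under all 12 alternatives, with FDR up to 0.0253.

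*Rbms3*, an RNA-binding protein gene, was measured at 5.92 CPM and 1.78 CPM in control replicates 1 and 3 and at 1.52 CPM and 1.01 CPM in TRC replicates 1 and 3, so control replicate 1 stood apart. Its FDR was 0.0449 in edgeR's exact test, and 0.598 without control replicate 1, with a log2 fold change of −1.61 in the former and −0.50 in the latter. Without control replicate 3 it was −2.23. It passed the threshold in 4 of the 12 alternatives.

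*Axl*, which encodes a receptor tyrosine kinase, was measured at 8.502 CPM and 2.35 CPM in control replicates 1 and 3 and at 39.4 CPM and 9.78 CPM in TRC replicates 1 and 3. The groups did not overlap, but both held a large spread, with replicate 1 the higher library in each. *Axl* was 4.52-fold higher (log2 fold change 2.18, SE 1.19, FDR = 0.00923 in edgeR's exact test), with FDR = 0.201 in DESeq2's Wald test, 0.0966 in edgeR's quasi-likelihood test, 0.175 without control replicate 3 and 0.561 without TRC replicate 1, where the log2 fold change was 0.83. Without control replicate 1 the log2 fold change was 3.38, and without TRC replicate 3 it was 2.85. In edgeR's quasi-likelihood test with a replicate block the call was kept (FDR = 0.0207).

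The signature genes given next, with *Ptpn14* above, were those not called with the highest mean CPM, which is not scaled to length. *Asap1* had a log2 fold change of −0.22 (SE 0.21), *Dock5* of 0.037 (SE 0.21) and *Crim1* of −0.38 (SE 0.26). Outside this ranking, *F3* had 0.55 (SE 0.24, FDR = 0.127 in edgeR's exact test). Of the 12 tested genes, 2 lay higher and 5 lower in both TRC libraries than in both controls. Among all genes tested, these shares were 30.2% and 30.4%. *Igfbp3* and *Foxf2* had 0 counts in all libraries, as *Ankrd1* did.

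*Ccn4* (formerly *Wisp1*), a CCN family gene best known as a Wnt target, was measured at 35.0 CPM and 11.6 CPM in control replicates 1 and 3 and at 3.06 CPM and 5.12 CPM in TRC replicates 1 and 3. Both controls lay above both TRC libraries in spite of the spread between the controls. *Ccn4* was 5.70-fold lower (log2 fold change −2.51, SE 0.49, FDR = 4.1e-05 in edgeR's exact test), the largest difference among the CCN genes tested. With 1 library left out, the log2 fold changes ran from −3.10 without control replicate 3 to −1.4999 without control replicate 1. The call was lost in edgeR's quasi-likelihood test with a replicate block (FDR = 0.0642). *Ccn3* lay between 0.368 and 1.12 CPM in the controls and between 0.577 and 1.06 CPM in the TRCs. *Ccn5* had at most 1 count per library and *Ccn6* at most 13, and neither was tested.

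SRF and its co-factors MRTF-A and MRTF-B respond to actin polymerization and share several target genes with YAP/TAZ. Of the 13 genes in an SRF/MRTF list, 7 were tested, of which 2 were downregulated and 0 upregulated, beside 7.05% and 8.81% of all genes. The median log2 fold change of the list was −0.30. *Flna*, which encodes the actin crosslinker filamin A, was measured at 939.9 CPM and 1050.0 CPM in control replicates 1 and 3 and at 561.1 CPM and 530.9 CPM in TRC replicates 1 and 3, and it was 1.82-fold lower (log2 fold change −0.87, SE 0.19, FDR = 0.00259 in edgeR's exact test). Its FDR was 0.0536 without control replicate 3 and 0.0836 without TRC replicate 3, with log2 fold changes of −0.79 and −0.82.

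*Tpm1*, a tropomyosin gene, was measured at 513.0 CPM and 758.8 CPM in control replicates 1 and 3 and at 370.5 CPM and 345.9 CPM in TRC replicates 1 and 3. *Tpm1* was 1.78-fold lower (log2 fold change −0.83, SE 0.24, FDR = 0.0125 in edgeR's exact test). The call was lost without control replicate 3, at a log2 fold change of −0.52, without TRC replicate 1, at −0.88, and without TRC replicate 3, at −0.78. It was also lost in edgeR's quasi-likelihood test (FDR = 0.0648) and in that test with a replicate block (FDR = 0.0707). The log2 fold changes were −0.30 for *Srf*, 0.054 for *Mrtfa*, −0.29 for *Mrtfb* and 0.23 for *Vcl*, which encodes vinculin, and none of these passed the threshold. The smooth muscle genes *Acta2* and *Cnn1* had 0 counts in all libraries.

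**Figure D4:**
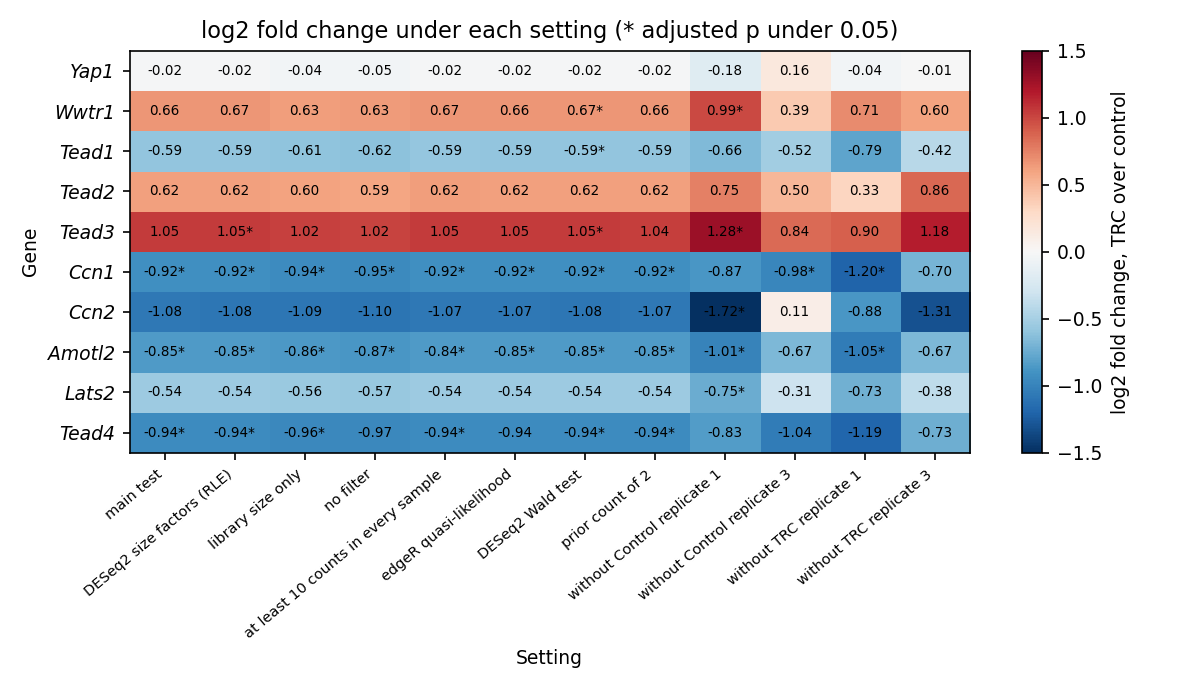
log2 fold changes of TRCs over controls for 10 genes (rows) under the main test and the alternatives without a replicate block (columns), with colour from blue for lower to red for higher in TRCs and a star where the adjusted p was under 0.05. *Ccn1* and *Amotl2* keep their direction in every column shown and lack the star in some, whereas *Yap1* and *Ccn2* change sign when control replicate 3 is left out.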

How the data were processed

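RNA-seq counts came from 4 libraries, grouped by the sample labels into 2 control and 2 TRC libraries. The authors made stranded libraries, used Trimmomatic for trimming of the single-end reads and TopHat2, with Ensembl annotation, for alignment to GRCm38, and ran htseq-count; the counting mode and strand setting are not given in the sources used here. The deposited files give unnormalized counts for each Ensembl gene, with totals for alignments on no gene, ambiguous or not unique, which were left out. No unassigned columns were present.

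Following the study's methods, genes under 1 CPM in at least 3 samples were removed, TMM factors were applied, and edgeR 4.0.16's exact test with tagwise dispersions, a prior count of 0.125 and Benjamini-Hochberg adjustment over 11483 genes was run under R 4.3.3, with FDR under 0.05 as threshold. The study reported fewer genes tested and fewer called than the 11483 and 1822 found here, and the cause was not tested. Standard errors and 95% intervals came from DESeq2 1.42.0. Symbols, positions and transcript lengths came from GENCODE M21. The genes and lists were chosen with earlier results of these data known. Named genes were the 10 genes, *Tead4*, *Lats1*, and from each list up to 6 called genes per direction. The 4 genes of each list with the highest mean CPM, not scaled to length, that were not called were also named. Genes with 0 counts were named after their values were seen, as were *Dct* and *F3*. Alternatives were DESeq2 size factors, library size only, a minimum of 10 counts in every sample, no filter, edgeR's quasi-likelihood test, that test with a replicate block, DESeq2's Wald test, a prior count of 2, leaving out each library, and merged exon length. Over 11483 genes, control and TRC libraries of the same number deviated from their groups with a correlation of r = 0.0267. Plots were drawn with matplotlib 3.10.9.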

Additional observations from a re-analysis of the deposited data

Results flagged for a closer look

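Alignments that were not unique, which were assigned to no gene, made up 18.3% of the alignments in TRC replicate 1 and 25.2% in TRC replicate 3, both above the 15.2% and 17.1% of control replicates 1 and 3. The share was noted because it lies outside the counts that were compared and was higher in both TRC libraries than in both controls. Its part in the results was not tested.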

How the results depend on the processing

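The number of differentially expressed genes was 1822 in the main test, 1054 in edgeR's quasi-likelihood test, 785 once the replicate block was added and 704 to 1965 with 1 library left out. Of the 9 tested genes of the YAP/TAZ group, 2 were called in the main test, 5 in DESeq2's Wald test, 0 with the replicate block and 0 to 5 with 1 library left out. Of the Hippo pathway list 3 were called, against 0 with the replicate block, 1 in the quasi-likelihood test and 0 to 2 with 1 library left out. Of the target signature 3 were called, against 1 in the quasi-likelihood test, 1 in DESeq2's Wald test and 1 to 2 with 1 library left out. Of the SRF/MRTF list 2 were called, against 1 with the replicate block, 1 in the quasi-likelihood test and 0 to 2 with 1 library left out. Of the other CCN genes 1 was called, against 0 with the replicate block. With the block the FDR was 0.0572 for *Ccn1* and 0.0697 for *Amotl2*. Whether same-numbered libraries were prepared together is not given in the sources used here, and 2 pairs are too few to show it.

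With merged exon length, the share of *Tead3* was 2.88% in controls and 6.09% in TRCs, that of *Tead4* 22.5% and 11.8%, and the ratio of *Yap1* to *Wwtr1* 1.79 in controls and 1.045 in TRCs, against 3.08 and 1.8 with the longest transcript. The sign of some small log2 fold changes differed. *Amotl1* was at −0.0071 with library size only and −0.012 without the filter. With 1 library left out the ranges were −0.18 to 0.16 for *Yap1*, −1.72 to 0.11 for *Ccn2*, −0.19 to 0.25 for *Amotl1*, −0.021 to 0.093 for *Dock5*, −0.46 to 0.47 for *Ccn3* and −0.16 to 0.23 for *Mrtfa*. The cause was not tested. With 2 libraries per group, intervals of about 0.4 or more on either side limit what can be seen for single genes.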
